A study of Mus musculus with 12 samples.

Results

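The culture response of GPR174-deficient follicular B cells was followed in 6 of the 12 RNA sequencing libraries of the series, namely the 3 libraries of GPR174-deficient (KO) cells frozen directly after the sort (0 h) and the 3 of KO cells frozen after 4 h in culture. Members were chosen by genotype and time, with earlier results of these data known. The comparison covers the 12837 genes found in both deposited tables, of 13574 genes in either. Of these genes, 11572 passed a filter on low counts and were tested. Follicular B cells were gated as CD21/35- CD23+ from spleens of adult male mice. KO mice were Gpr174-/Y and carried a knock-in of the red fluorescent protein tdTomato in place of the receptor's coding sequence. Every cell of the animal, and not only B cells, therefore lacked the receptor, and KO cells made the reporter. The 6 WT libraries, 3 at 0 h and 3 at 4 h, came from Gpr174+/Y males and served for comparison. Culture was in complete RPMI medium with serum and 2-mercaptoethanol, and no ligand or stimulus was added at either time in either genotype. The labels give each library a replicate number, but do not say whether the 0 h and 4 h cells of a number came from the same mouse or were prepared on the same day.

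GPR174 is a receptor for the lipid lysophosphatidylserine that couples to the G protein Gαs. Gαs activates adenylyl cyclase, and the cAMP that is made activates protein kinase A, which phosphorylates CREB-family transcription factors. Follicular B cells are the recirculating, resting mature B cells of spleen and lymph nodes, and depend in vivo on signals from the B cell receptor (BCR), from the cytokine BAFF and from contact with stromal cells. The comparison asks which transcripts change during 4 h in culture when GPR174 is absent.

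KO libraries held 6898199 to 8068090 counts at 0 h and 7031820 to 8051289 counts at 4 h, so depth did not separate the times. Reads of the ribosomal RNA precursor (*Rn45s*) did, at 9.23% to 10.3% of counts at 0 h and 6.65% to 7.59% at 4 h. Levels are given as CPM, counts scaled to a common library size after adjustment by the trimmed mean of M values (TMM). *Gpr174* (chromosome X, 107255878 to 107296769, plus strand, GRCm38), the targeted gene, was counted at 73.4, 76.7 and 74 CPM in KO 0 h replicates 1 to 3 and 118, 106 and 105 CPM in KO 4 h replicates 1 to 3. All KO 4 h values were above all KO 0 h values, by a log2 fold change of 0.55 ± 0.07 (SE, edgeR adjusted p = 2.39e-06), and all 6 lay below the WT libraries of the same time. The table counts the whole gene, so this rise is of reads from any part of the targeted locus. The gate was checked against 11 marker lists. Of all tested genes, 10.3% were raised and 13.0% lowered. The summed level of 10 follicular B cell markers was 14787 to 15252 CPM at 0 h and 12582 to 12723 CPM at 4 h, with 8 lowered and 2 raised. That of 9 macrophage markers was 82.0 to 91.3 CPM at 0 h and 37.0 to 53.5 CPM at 4 h, with 6 lowered and 1 raised. Of 6 plasma cell markers 1 was raised (*Sdc1*) and 2 lowered (*Xbp1* and *Slpi* (-1.69)), 1 of 4 dendritic cell markers was lowered (*Flt3* (-1.36)), and 1 of 3 platelet markers was lowered (*Ppbp* (-2.62)). In the 4-group fit of all libraries no gene was called by edgeR or by DESeq2 among 7 T cell, 4 NK cell, 6 neutrophil and 5 erythroid markers (2 T cell markers and none of the others had an unadjusted p under 0.05). Without KO 0 h replicate 3 or KO 4 h replicate 2, 2 erythroid markers were lowered, and without the latter 1 neutrophil marker. With a replicate block in that fit, 2 erythroid markers and 1 T cell marker were lowered. The erythroid sum ranged from 804 to 2512 CPM at 0 h and from 699 to 1798 CPM at 4 h.

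Culture without GPR174 changed the level of 2697 of 11572 genes (23.3%) at an edgeR adjusted p under 0.05, and these are called differentially expressed genes (DEGs). Of them 1193 were raised (10.3% of those tested) and 1504 lowered (13.0%). A log2 fold change is KO 4 h over KO 0 h. The typical DEG moved little, with a median of 0.39 for raised and -0.51 for lowered genes, against a median standard error of 0.12 over all genes. Only 453 DEGs changed over 2-fold, 134 of them upward and 319 downward. All 3 KO 4 h libraries lay above all 3 KO 0 h libraries in 2379 genes (20.6%) and below them in 2465 (21.3%). Of the DEGs, 1175 raised and 1471 lowered genes had libraries that did not overlap in this way. The share of DEGs followed the level and hence the number of reads, from 12.7% in the fifth of genes with the lowest mean (113 raised, 182 lowered) to 41.5% in the fifth with the highest (417 raised, 543 lowered).

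How the DEGs divided by direction changed with the scaling. On library totals alone the median gene moved from 0.0016 to 0.092 on the log2 scale, with 2168 genes raised and 1101 lowered. Each direction given here is that on the TMM scale. The number raised was also smaller, at 761 to 935, when any 1 KO library was left out. It was lowest without KO 0 h replicate 1. Time is confounded with whatever differed in handling between freezing at once and freezing after culture, and the labels name no batch, so these cannot be told apart. In bulk RNA, fewer cells of a type and less RNA per cell also cannot be told apart.

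**Figure D1:**
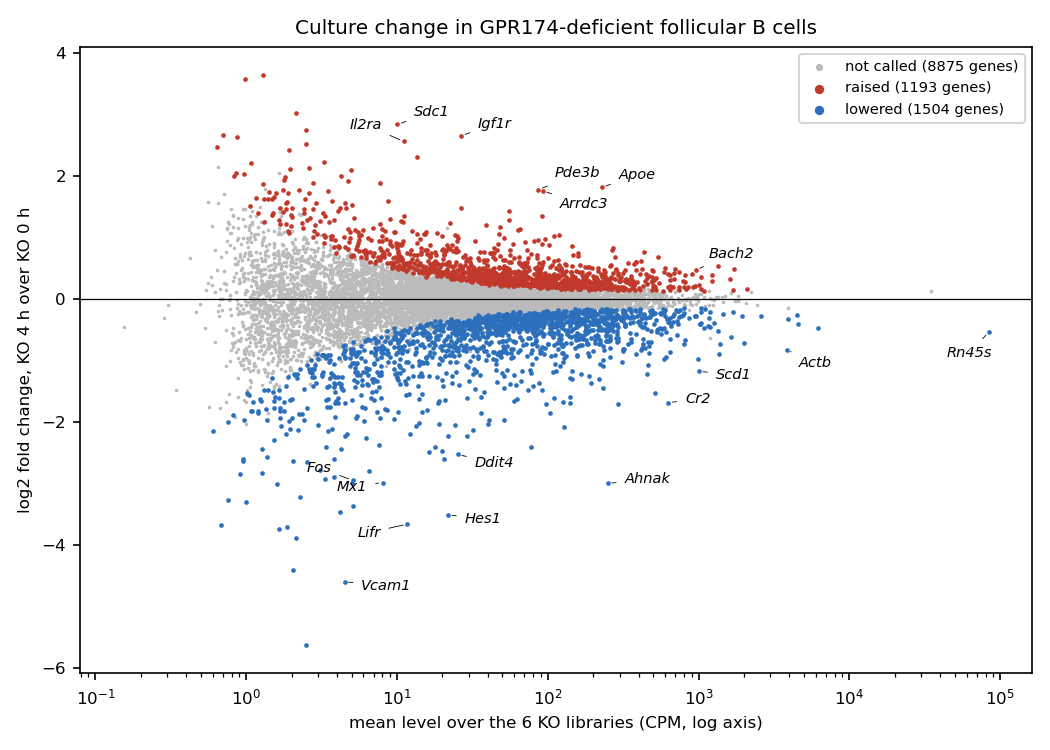
Change of 11572 genes in KO culture: the x axis is the mean level over the 6 KO libraries (CPM, log axis), the y axis the log2 fold change of KO 4 h over KO 0 h, and each point 1 gene, coloured where called. The labelled genes are described in the text. More genes lie below -1 (319 lowered) than above 1 (134 raised), and *Ahnak* and *Hes1* stand far below genes of like level.

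Among genes that reached at least 5 CPM and whose libraries did not overlap, the largest rise was in *Sdc1* (chromosome 12, 8771323 to 8793715), which encodes syndecan-1 (CD138), a heparan sulfate proteoglycan best known as a surface marker of plasma cells. The plasma cell list as a whole had a median of -0.26, with 1 of 6 raised and 2 lowered, and its summed level was 438 to 483 CPM at 0 h and 443 to 481 CPM at 4 h. *Sdc1* was at 2.53, 1.48 and 3.3 CPM in KO 0 h replicates 1 to 3 and 15.9, 18.9 and 18.3 CPM in KO 4 h replicates 1 to 3. The groups were far apart, and the log2 fold change was 2.84 ± 0.22 (SE, edgeR adjusted p = 2.66e-09). A growth factor receptor and a cytokine receptor came next.

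*Igf1r*, the receptor for insulin-like growth factor 1 (chromosome 7, 67952827 to 68233668), was at 8.47, 8.15 and 5.23 CPM at 0 h and 50.3, 50.1 and 37.8 CPM at 4 h, a log2 fold change of 2.66 ± 0.18 (SE, edgeR adjusted p = 3.70e-10). *Il2ra*, the α chain of the interleukin-2 receptor (CD25), was at 3.67, 2.67 and 3.16 CPM at 0 h and 18.2, 18.6 and 20.1 CPM at 4 h, a change of 2.57 ± 0.19 (SE, edgeR adjusted p = 2.24e-09). Both were among the lowly expressed genes at 0 h and moderately expressed in every 4 h library. The WT changes were 2.75 and 3.21, and the difference between genotypes passed the test for neither gene.

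Among more abundant genes, *Apoe*, which encodes the lipid carrier apolipoprotein E, was at 98.7, 106 and 98.2 CPM at 0 h and 331, 373 and 364 CPM at 4 h, a log2 fold change of 1.82 ± 0.12 (SE, edgeR adjusted p = 3.70e-10). *Arrdc3*, an α-arrestin of membrane protein trafficking, was at 42.2, 47.3 and 38 CPM at 0 h and 124, 149.5 and 158 CPM at 4 h (log2 fold change 1.76 ± 0.11 SE, edgeR adjusted p = 2.89e-10). *Pde3b*, a phosphodiesterase that breaks down cAMP, was at 35.8, 44 and 37.7 CPM at 0 h and 118, 140.1 and 144 CPM at 4 h (log2 fold change 1.78 ± 0.09 SE, edgeR adjusted p = 1.29e-11). In each of these 3 genes the lowest 4 h library exceeded the highest 0 h library more than 2-fold. The other genes with the largest rises were the inducible chaperone *Hspa1a* (2.31), the neutral amino acid transporter *Slc1a4* (2.24), *Fam160a1* (2.11), *Gm16157* (2.01), *6330403A02Rik* (1.92), the synaptic vesicle regulator *Cplx2* (1.89), *2410018M08Rik* (1.76), the inhibitory receptor *Lilrb4* (1.6) and the orphan nuclear receptor *Nr6a1* (1.6). *Hspa1a* has a near-identical neighbour, *Hspa1b*, so its share of their reads is uncertain. All 15 of these genes kept their call when any 1 library was left out.

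Falls reached further than rises among genes chosen in the same way. *Vcam1* (chromosome 3, 116109949 to 116129688), which encodes the vascular cell adhesion molecule, was at 8.72, 9.63 and 7.57 CPM in KO 0 h replicates 1 to 3 and 0.132, 0.359 and 0.544 CPM in KO 4 h replicates 1 to 3. It was close to absent at 4 h, with a log2 fold change of -4.59 ± 0.42 (SE, edgeR adjusted p = 3.73e-08). *Lifr*, a receptor subunit for leukemia inhibitory factor, was at 23.1, 24.4 and 17.8 CPM at 0 h and 1.71, 1.91 and 1.5 CPM at 4 h (log2 fold change -3.65 ± 0.27 SE, edgeR adjusted p = 1.43e-09). *Hmox1*, which encodes heme oxygenase 1, was at 8.72, 9.48 and 9.77 CPM at 0 h and 0.659, 1.43 and 0.544 CPM at 4 h (log2 fold change -3.35 ± 0.39 SE, edgeR adjusted p = 1.08e-06). *Vcam1* and *Hmox1* are also abundant in red pulp macrophages and stand on the macrophage list. That list's other lowered members were *Csf1r* (-2.26), *Slc40a1* (-2.11), *Axl* (-1.76) and *Lyz2* (-1.04), while *Cd68* (-0.08) and *Spic* (-0.06) were not called and *Emr1* (1.13), the F4/80 gene, was called as raised. *Emr1* lost its call without any of 5 libraries (WT 0 h replicate 3, WT 4 h replicate 3, KO 0 h replicates 1 and 2, KO 4 h replicate 1), and *Lyz2* without KO 0 h replicate 2 or KO 4 h replicate 3. The study describes the sort for CD23+ follicular B cells as highly pure. The macrophage genes *C1qb*, *C1qc* and *C1qa* were found at 0 h only, with 100, 97 and 44 counts summed over the KO libraries. The median of the macrophage list was -1.76 in KO and -1.76 in WT. The part of macrophages in the fall of *Vcam1* and *Hmox1* was not tested.

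*Hes1* (chromosome 16, 30064384 to 30067796), a repressor that is the classic target of Notch signaling, was at 42.7, 39.6 and 37.8 CPM in KO 0 h replicates 1 to 3 and 3.03, 3.35 and 4.21 CPM in KO 4 h replicates 1 to 3. No library of either time came near the other group, and the log2 fold change was -3.5 ± 0.15 (SE, edgeR adjusted p = 4.88e-13). *Ahnak*, a very large scaffold protein, was the most abundant gene among the large falls, at 443, 469 and 420.1 CPM at 0 h and 58.6, 55.9 and 52.7 CPM at 4 h (log2 fold change -2.99 ± 0.07 SE, edgeR adjusted p = 2.48e-17). *Fos*, a subunit of the AP-1 transcription factor, was at 10.1, 8.74 and 8.12 CPM at 0 h and 0.79, 1.2 and 1.5 CPM at 4 h (log2 fold change -2.94 ± 0.40 SE, edgeR adjusted p = 9.56e-06).

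The remaining genes with the largest falls fell into 2 kinds. Genes induced by interferon were *Mx2* (-2.99), which is annotated as a polymorphic pseudogene, *Mx1* (-2.98), *Gbp6* (-2.78) and *Oas2* (-2.59). The others were the calmodulin regulator *Pcp4* (-3.46), the short-chain fatty acid receptor *Ffar2* (-2.92), the anion exchanger *Slc4a3* (-2.89), the proteoglycan *Sdc3* (-2.79) and *Hspa12a* (-2.59). Their KO 4 h levels were 0.263 to 7.41 CPM, and calls of all 15 genes held when any 1 library was left out.

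**Figure D2:**
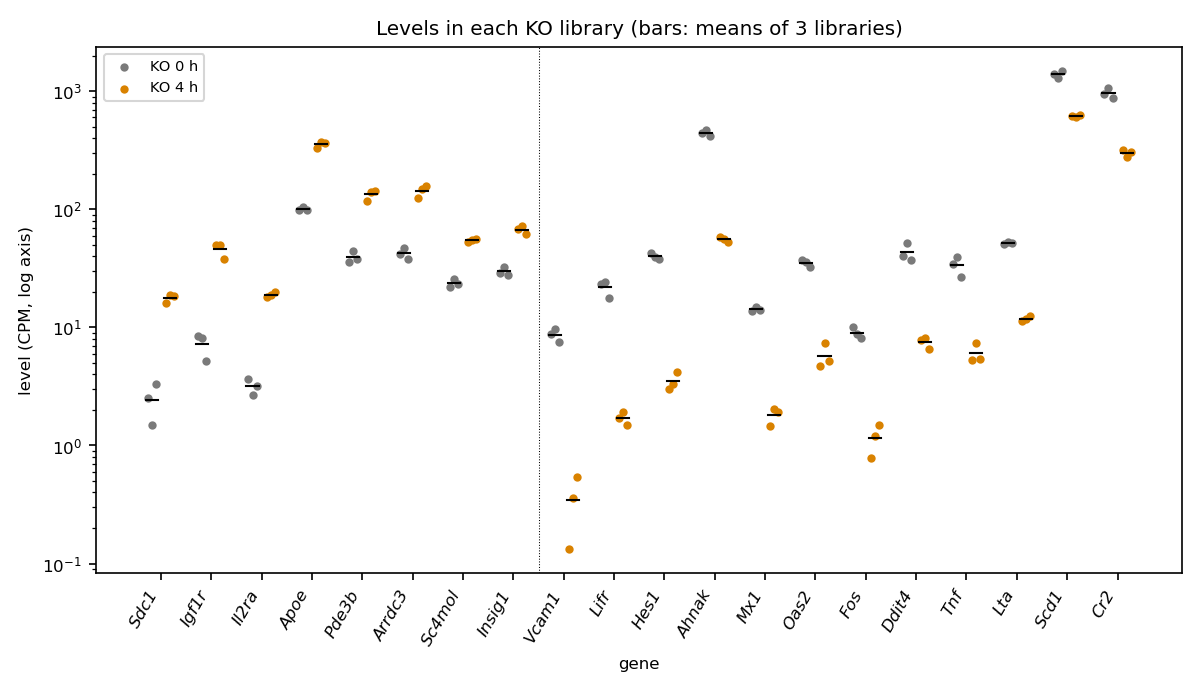
Level of 20 genes in each KO library: the y axis is CPM (log axis), grey points are the 3 KO 0 h libraries, orange points the 3 KO 4 h libraries, and bars their means. Genes left of the dotted line rose and those right of it fell, and the groups do not overlap in any of the 20.

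By absolute level the largest falls were in *Rn45s*, in *Actb*, the cytoskeletal β-actin (from 4904 to 2775 CPM), in *Cd74*, the invariant chain of MHC class II (from 7132 to 5175 CPM), in *Macf1*, a linker of microtubules and actin (from 5172 to 3905 CPM), and in *Ptprc*, the CD45 phosphatase (from 2473 to 1516 CPM). Among the largest rises in level, *Pou2af1*, a B cell coactivator of octamer-binding factors, went from 1423 ± 41.7 CPM at 0 h to 2008 ± 117 CPM at 4 h (SD, n = 3). *Bach2*, a repressor of plasma cell differentiation, was at 805, 764 and 839 CPM at 0 h and 1173, 1100.2 and 1076 CPM at 4 h (log2 fold change 0.48 ± 0.06 SE, edgeR adjusted p = 1.49e-06). *Med13* of the Mediator complex (0.54 ± 0.05), the BCR subunit *Cd79b* (0.33 ± 0.05) and the nucleolar protein *Ncl* (0.40 ± 0.06) rose too.

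Members of 36 pathway lists were then counted. All tested genes together had a median log2 fold change of 0.0016, with 10.3% raised and 13.0% lowered, and each list is read against these shares. The lists were chosen with earlier results of these data known, so this reading is descriptive and not a test.

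Interferon-stimulated genes were the list that fell furthest. Interferons act through receptor-bound JAK kinases and STAT and IRF factors, which bind promoters of antiviral genes. Of 31 genes tested, 26 were lowered (83.9%) and 1 was raised, with a median log2 fold change of -1.36. Among effectors, *Oas2*, which makes the 2′-5′ oligoadenylate that activates RNase L, was at 37, 36 and 32.2 CPM at 0 h and 4.74, 7.41 and 5.16 CPM at 4 h (log2 fold change -2.59 ± 0.35 SE, edgeR adjusted p = 9.61e-06). *Mx1*, an antiviral GTPase, was at 13.9, 15 and 14 CPM at 0 h and 1.45, 2.03 and 1.9 CPM at 4 h (log2 fold change -2.98 ± 0.51 SE, edgeR adjusted p = 0.000162). *Oas3* (-2.41), *Rtp4* (-2.19), *Ifit1* (-2.14), *Cmpk2* (-2.01), *Ifit3* (-1.84) and *Isg15* (-1.51) fell as well, *Ifit3* without a call when KO 4 h replicate 3 was left out. Among signaling components, *Irf9*, which forms part of the factor that interferon activates, was at 132, 133 and 136 CPM at 0 h and 50.1, 45.8 and 49.5 CPM at 4 h (log2 fold change -1.47 ± 0.11 SE, edgeR adjusted p = 1.20e-09), and *Irf7* changed by -1.65 ± 0.30. The exceptions were *Stat2*, at -0.04 ± 0.07 and not called, *Ifit2* (-0.45), *Rsad2* (-0.96) and *Gbp2* (-0.57), which also missed the threshold, and *Gbp3*, a guanylate-binding protein, which rose by 0.61. The count lowered was 23 to 28 when any 1 library was left out and 25 with library totals only.

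In WT the same list had a median of -0.64. A difference between genotypes was called for 2 of its 31 genes, near the 6.39% of all genes. These were *Irf9* (0.61, WT minus KO) and *Stat2* (-0.36). The WT median rested on 1 library. In WT, *Mx1* was at 16.9, 10.3 and 10.7 CPM at 0 h and 0.323, 1.72 and 9.28 CPM at 4 h. *Rtp4* was at 16.8, 15 and 13.6 CPM at 0 h and 1.29, 3.44 and 13.9 CPM at 4 h there. WT 4 h replicate 3 lay far above the other two in both. Without that library the WT median was -1.33, beside -1.36 in KO.

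Promoters of the list were examined for GAAANNGAA, the core of the element bound by interferon regulatory factors, on both strands, a motif chosen after the values were seen. RefSeq promoters (GRCm38.p6, 250 bases before to 50 after the start) matched 22 of the 31 genes, and 13 of these (59.1%) held it. It stood in 8.56% of the promoters of all tested genes and in 8.56% of all 32851 promoters in the table. Genes raised over 2-fold held it in 12.6% of promoters and genes lowered over 2-fold in 13.8%. The list members that held it included *Stat2*, *Rsad2* and *Gbp2*, which were not called, and *Gbp3*, which rose. The 250 bases before the start are shown for 3 genes that fell, with each match in capitals, because the matches lie close together and near the start. *Ifit1* (5.43, 4.59 and 7.16 CPM at 0 h and 1.19, 1.31 and 1.36 CPM at 4 h) lies on the plus strand, and *Isg15* (5.56, 7.11 and 4.68 CPM at 0 h and 2.63, 1.79 and 1.63 CPM at 4 h) and *Oas3* (27.8, 29.2 and 33.3 CPM at 0 h and 4.35, 8.49 and 3.94 CPM at 4 h) on the minus strand.
Ifit1, chr19:34640639-34640888, plus strand: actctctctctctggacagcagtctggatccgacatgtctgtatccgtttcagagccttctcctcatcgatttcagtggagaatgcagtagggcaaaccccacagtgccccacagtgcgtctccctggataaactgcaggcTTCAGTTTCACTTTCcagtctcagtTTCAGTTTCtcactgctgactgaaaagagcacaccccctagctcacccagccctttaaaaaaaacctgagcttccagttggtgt
Isg15, chr4:156200819-156201068, minus strand: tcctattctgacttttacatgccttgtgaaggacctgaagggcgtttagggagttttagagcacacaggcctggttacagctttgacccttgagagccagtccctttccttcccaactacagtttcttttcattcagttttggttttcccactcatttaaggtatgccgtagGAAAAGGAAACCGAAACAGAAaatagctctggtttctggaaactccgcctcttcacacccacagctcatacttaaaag
Oas3, chr5:120777660-120777909, minus strand: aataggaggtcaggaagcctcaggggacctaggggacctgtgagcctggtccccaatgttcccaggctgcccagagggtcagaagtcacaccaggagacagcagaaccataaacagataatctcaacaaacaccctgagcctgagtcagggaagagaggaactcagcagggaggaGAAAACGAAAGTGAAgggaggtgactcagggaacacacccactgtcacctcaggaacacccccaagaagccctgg
The matches start 109, 103 and 84 bases before the start in *Ifit1*, 78, 72 and 66 in *Isg15*, and 75 and 69 in *Oas3*, and matches 6 bases apart overlap by 3 bases. In *Ifit1* they lie on the opposite strand to the gene. *Ifit3*, which also fell and is not shown, has matches that start 155, 121 and 102 bases before the start and do not overlap.

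Genes of sterol synthesis and uptake were the list that rose furthest. When sterol in the endoplasmic reticulum is low, SCAP escorts the factor SREBP2 to the Golgi, where it is cleaved, and it then activates the enzymes of the mevalonate and cholesterol pathways. Of 26 genes tested, 15 were raised (57.7%), with a median of 0.49. The other 11 did not pass the test. When any 1 library was left out the count raised was 12 to 16, and it was 18 with library totals only. *Insig1*, which holds SCAP in the endoplasmic reticulum and is itself a target, was at 29.1, 32.6 and 27.7 CPM in KO 0 h replicates 1 to 3 and 68, 72.7 and 61.6 CPM in KO 4 h replicates 1 to 3. The lowest 4 h library was well above the highest 0 h library, and the change was 1.18 ± 0.10 (SE, edgeR adjusted p = 1.71e-08). Synthesis enzymes that rose ran from *Hmgcs1* (0.94 ± 0.08) to *Fdps* (1.31 ± 0.27), *Fdft1* (0.89 ± 0.15), *Sqle* (1.00 ± 0.10), *Cyp51* (0.91 ± 0.09) and *Sc4mol* (1.21 ± 0.10). The regulators themselves did not pass the test, at 0.07 ± 0.06 for *Srebf2*, which encodes SREBP2, and 0.13 ± 0.09 for *Scap*.

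In WT the list had a median of 0.22, with 9 raised and 1 lowered. The difference between genotypes was called for 6 of the 26 members, against 6.39% of all genes. All 6 had the higher change in KO, among them *Sc4mol* (-1.01, WT minus KO), *Mvd* (-0.96), *Sqle* (-0.51), *Hmgcs1* (-0.47) and *Cyp51* (-0.46). *Sc4mol*, a C4-methyl sterol oxidase, was at 22.1, 25.5 and 23.4 CPM at 0 h and 53.3, 54.7 and 56 CPM at 4 h in KO. In WT it was at 30.6, 26.7 and 25.9 CPM at 0 h and 30.01, 31.9 and 33 CPM at 4 h, and there it was not called as changed (0.20).

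The sterol response element TCACNCCAC, searched on both strands, stood in 1 of 17 list promoters that matched (5.88%) and in 1.38% of those of all tested genes. The gene was *Hmgcs1*, which encodes the cytosolic HMG-CoA synthase and was at 53.7, 51.1 and 61.1 CPM at 0 h and 107, 114 and 98.3 CPM at 4 h. Its 250 bases before the start are shown with the element in capitals, which starts 137 bases before the start.
Hmgcs1, chr13:119690101-119690350, plus strand: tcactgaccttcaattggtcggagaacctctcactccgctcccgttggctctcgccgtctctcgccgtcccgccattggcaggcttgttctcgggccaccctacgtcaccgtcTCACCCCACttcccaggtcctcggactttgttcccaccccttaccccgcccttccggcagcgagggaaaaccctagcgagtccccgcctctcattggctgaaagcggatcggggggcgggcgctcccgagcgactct
The CCAAT box, which the factor NF-Y binds beside SREBP, stood in 15 of the 17 (88.2%) and in 43.6% of the promoters of all tested genes. Among the 15 were *Ebp*, *Idi1*, *Lss*, *Mvd*, *Nsdhl*, *Pmvk*, *Srebf2* and *Tm7sf2*, which were not called in KO. Of 87 promoters of genes raised over 2-fold, 35.6% held the CCAAT box and 0 the sterol response element.

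Other lipid genes did not rise together. *Scd1*, which desaturates fatty acids, was at 1395, 1298 and 1487 CPM at 0 h and 616, 611 and 634 CPM at 4 h (log2 fold change -1.17 ± 0.06 SE, edgeR adjusted p = 3.22e-12). *Scd2* changed by -1.42 ± 0.12. Of 11 genes of fatty acid synthesis, 2 were lowered and 1 raised, the latter without a call in DESeq2 and when KO 0 h replicate 1 or 3, WT 4 h replicate 3 or any KO 4 h library was left out. Among 11 genes of cholesterol efflux and liver X receptor (LXR) targets, *Apoe* rose, while the transporters *Abcg1*, *Abca7* (-0.32) and *Abca1* (-0.27) fell. *Abcg1* was at 91.8, 95.5 and 97.8 CPM at 0 h and 37.5, 28.7 and 26.8 CPM at 4 h (log2 fold change -1.62 ± 0.10 SE, edgeR adjusted p = 2.14e-10). The calls on *Abca7* and *Abca1* were lost with library totals only, and without KO 0 h replicate 3 or KO 4 h replicate 3 for *Abca7* (-0.29 and -0.22) and without KO 4 h replicate 2 for *Abca1* (-0.24).

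Stress pathways moved in different directions. The integrated stress response, in which the factor ATF4 induces amino acid transport and synthesis, had 8 raised and 2 lowered genes of 19 (median 0.22). *Atf4* itself was 1 of the 2 lowered (-0.20 ± 0.06), a call lost without KO 0 h replicate 1 or 3 or KO 4 h replicate 2. *Slc7a5*, the large neutral amino acid transporter, was at 15, 19.9 and 14.2 CPM at 0 h and 31.5, 34.1 and 34.7 CPM at 4 h (log2 fold change 1.03 ± 0.16 SE, edgeR adjusted p = 4.10e-05). Other raised members included *Aldh18a1* of proline synthesis (0.84 ± 0.14) and *Mthfd2* of the mitochondrial folate cycle (0.81 ± 0.16). *Trib3*, an ATF4 target pseudokinase, was at 0.885, 0.593 and 0.688 CPM at 0 h and 3.56, 3.82 and 2.17 CPM at 4 h (log2 fold change 2.11 ± 0.51 SE, edgeR adjusted p = 0.003996). *Ddit4*, an inhibitor of mTORC1 that is on this list, the glucocorticoid list and the hypoxia list, fell instead, at 40.6, 51.7 and 37.4 CPM at 0 h and 7.77, 8.13 and 6.52 CPM at 4 h (log2 fold change -2.52 ± 0.15 SE, edgeR adjusted p = 7.99e-11).

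The unfolded protein response, which raises chaperones of the endoplasmic reticulum, had 15 of 19 genes lowered (78.9%) and 1 raised, with a median of -0.33. Its main chaperone *Hspa5* (BiP) was at 569, 509 and 638 CPM at 0 h and 388, 412 and 406 CPM at 4 h (log2 fold change -0.51 ± 0.07 SE, edgeR adjusted p = 5.42e-06). *Xbp1*, a transcription factor of the response, was at 74.6, 66.4 and 76.2 CPM at 0 h and 45.3, 43.5 and 47 CPM at 4 h (log2 fold change -0.68 ± 0.08 SE, edgeR adjusted p = 8.54e-07). *Sdf2l1* (-0.86 ± 0.14) and *Edem1* (-0.58 ± 0.07) fell too. The raised gene was the sensor *Ern1* (0.80 ± 0.22), which was not called without KO 0 h replicate 1. With library totals only, 11 were lowered.

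Of 19 cytosolic heat shock genes, 7 were lowered (36.8%) and 1, *Hspa1a*, was raised. The constitutive chaperone *Hspa8* was at 207, 158 and 263 CPM in KO 0 h replicates 1 to 3 and 66.5, 70.6 and 71.5 CPM in KO 4 h replicates 1 to 3. The 0 h libraries varied widely and the 4 h libraries hardly, and the groups did not overlap (log2 fold change -1.59 ± 0.16 SE, edgeR adjusted p = 1.62e-07). *Dnajb1* (232, 157 and 303 CPM at 0 h and 99.6, 99.3 and 98.8 CPM at 4 h) and *Hsp90aa1* (151, 95.3 and 205 CPM at 0 h and 64.5, 78.9 and 74.8 CPM at 4 h) had the same pattern, with KO 0 h replicate 3 the highest and replicate 2 the lowest in each. The count lowered was 4 without KO 0 h replicate 3 and 5 to 8 without any other library. NRF2 targets of the oxidative stress response had 4 raised and 1 lowered of 18, or 7 raised with library totals only, with the glutathione synthesis genes *Gclm* (1.1 ± 0.23) and *Gclc* (0.80 ± 0.08) raised and *Hmox1* lowered.

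**Figure D3:**
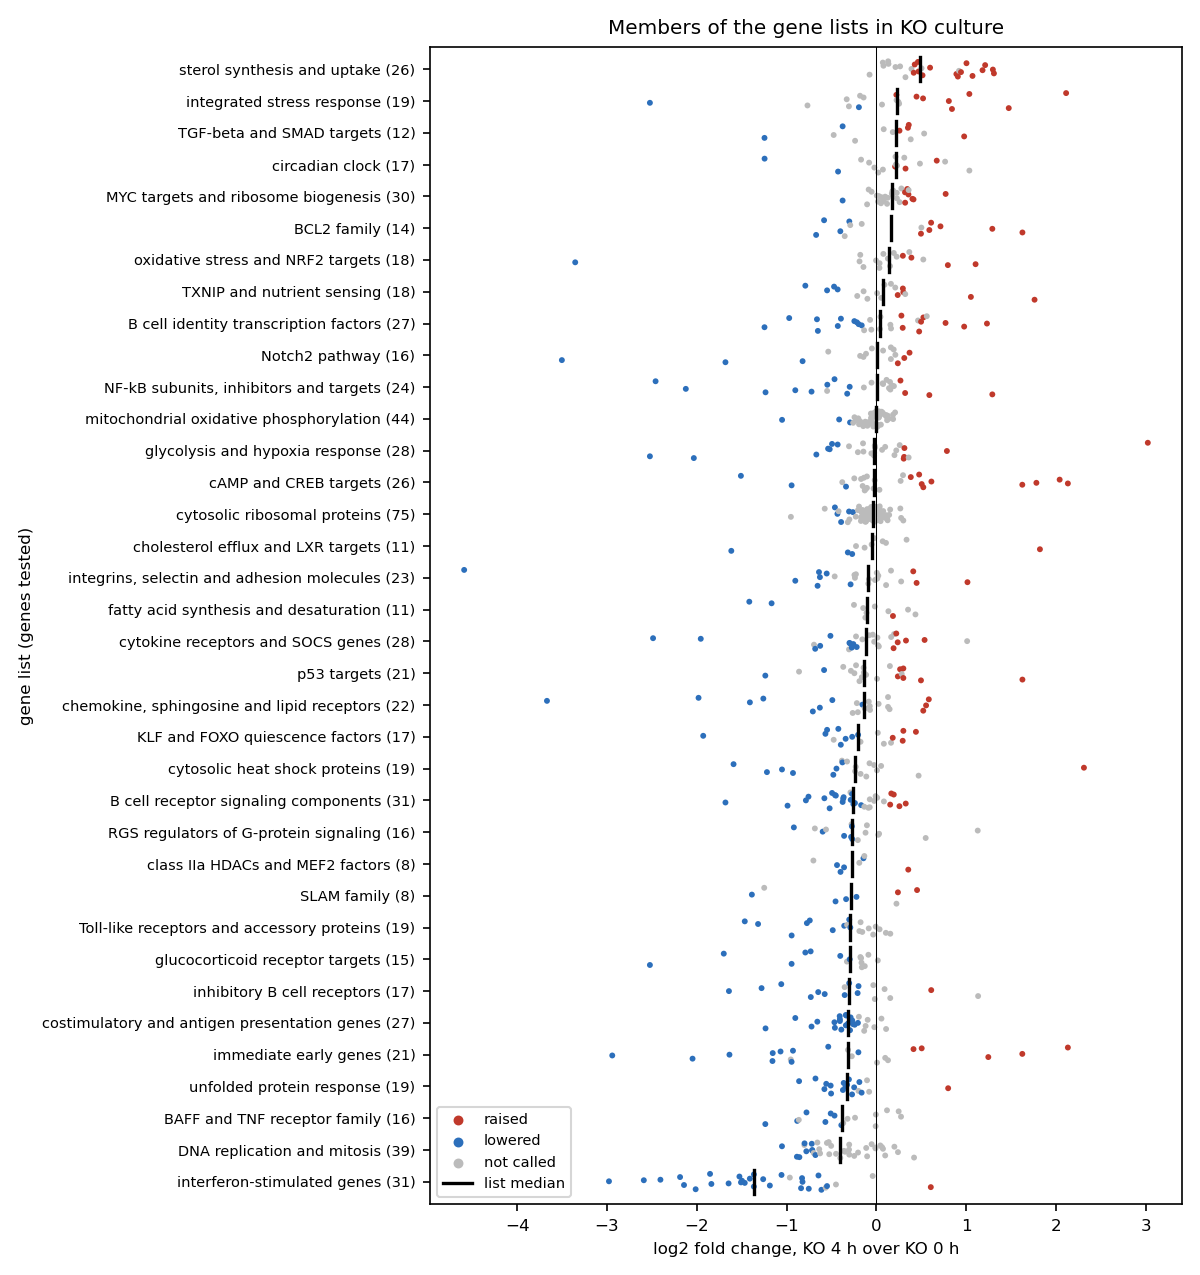
Members of the 36 pathway lists in KO culture: the x axis is the log2 fold change of KO 4 h over KO 0 h, each row a list with its number of tested genes, each point a gene (red raised, blue lowered, grey not called), and the black bar the list median. The interferon list lies lowest (median -1.36) and the sterol list highest (0.49).

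Immediate early genes, which are transcribed within minutes of stimulation and have short-lived RNA, had 10 of 21 lowered (47.6%) and 5 raised (23.8%). Of the AP-1 subunits, *Fos*, *Jun* and *Junb* (-0.93 ± 0.14) fell, *Fosl2* rose (1.62 ± 0.44) and *Jund* did not pass the test (-0.32 ± 0.13). *Fosb* was called as lowered (-1.64 ± 0.58), but not when any 1 KO library was left out. The immediate early gene *Ier2* fell (-1.15 ± 0.11). *Jun* was at 40.8, 35.8 and 40.2 CPM at 0 h and 16.9, 19.96 and 18.9 CPM at 4 h (log2 fold change -1.07 ± 0.12 SE, edgeR adjusted p = 1.03e-06). The phosphatase gene *Dusp6*, which turns off the kinase ERK, was at 37.5, 44.6 and 35.2 CPM at 0 h and 8.56, 9.56 and 10.2 CPM at 4 h (log2 fold change -2.05 ± 0.13 SE, edgeR adjusted p = 2.14e-10). *Dusp2* changed by -1.16 ± 0.09. *Egr1* did not pass the test (0.10 ± 0.11). *Egr2* rose, at 12.3, 14.2 and 13.9 CPM at 0 h and 31.7, 34.2 and 29.6 CPM at 4 h (log2 fold change 1.25 ± 0.15 SE, edgeR adjusted p = 2.38e-06). The orphan nuclear receptors *Nr4a1* (0.50 ± 0.13) and *Nr4a3* (2.13 ± 0.43) rose as well, *Nr4a3* from 0.148 to 1.51 CPM at 0 h.

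The NF-κB list had 4 raised and 9 lowered genes of 24 (median 0.0075), or 9 and 9 with library totals only. Without KO 0 h replicate 2 the raised were 2. Its cytokine genes *Tnf* and *Lta* were among those that fell. *Tnf* was at 34.1, 39.6 and 26.8 CPM at 0 h and 5.27, 7.41 and 5.44 CPM at 4 h (log2 fold change -2.46 ± 0.25 SE, edgeR adjusted p = 1.62e-07). *Lta*, which encodes lymphotoxin α, was at 50.7, 53.3 and 51.5 CPM at 0 h and 11.3, 11.8 and 12.5 CPM at 4 h (log2 fold change -2.12 ± 0.10 SE, edgeR adjusted p = 3.58e-12). *Cd69*, an early activation marker of lymphocytes, was at 49, 49.5 and 51.2 CPM at 0 h and 21.7, 20.9 and 20.9 CPM at 4 h (log2 fold change -1.23 ± 0.11 SE, edgeR adjusted p = 1.66e-08). *Socs3*, a feedback inhibitor of cytokine signaling, was at 28.9, 32 and 22.8 CPM at 0 h and 5.53, 5.62 and 3.67 CPM at 4 h (log2 fold change -2.49 ± 0.20 SE, edgeR adjusted p = 4.78e-09). The related *Socs1* changed by -1.96 ± 0.53 and lost its call without KO 4 h replicate 1. Of 28 genes of cytokine receptors and SOCS proteins, 5 were raised and 10 lowered, and the raised were 2 without KO 0 h replicate 1 and 3 without KO 4 h replicate 1 or 2.

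Glucocorticoid receptor targets had 7 of 15 lowered (46.7%), and the other 8 did not pass the test. *Tsc22d3* (GILZ), which mediates anti-inflammatory effects of glucocorticoids, was at 439, 506 and 387 CPM in KO 0 h replicates 1 to 3 and 128, 147 and 134 CPM in KO 4 h replicates 1 to 3. Every 4 h library lay far below every 0 h library, a change of -1.7 ± 0.09 (SE, edgeR adjusted p = 1.24e-11). *Txnip*, a thioredoxin inhibitor that follows glucose supply, was at 548, 574 and 544 CPM at 0 h and 313, 314 and 336 CPM at 4 h (log2 fold change -0.79 ± 0.05 SE, edgeR adjusted p = 4.16e-10). The clock gene *Per2* was at 21.1, 23.3 and 17.2 CPM at 0 h and 8.3, 9.92 and 7.61 CPM at 4 h (log2 fold change -1.25 ± 0.17 SE, edgeR adjusted p = 7.31e-06). *Nr1d2*, a repressor of the clock, was at 26.4, 24 and 29.2 CPM at 0 h and 44.3, 37.1 and 45.8 CPM at 4 h (log2 fold change 0.67 ± 0.13 SE, edgeR adjusted p = 0.000417).

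The BCR signaling list had 17 of 31 lowered (54.8%) and 5 raised, with a median of -0.26. *Cr2*, which encodes the complement receptor CD21/35, is on this list and the Notch list and was at 954, 1055 and 873 CPM in KO 0 h replicates 1 to 3 and 319.7, 276 and 304 CPM in KO 4 h replicates 1 to 3. The groups lay far apart (log2 fold change -1.68 ± 0.09 SE, edgeR adjusted p = 1.29e-11). *Itpr1* (-0.79 ± 0.06), *Pik3ap1* (-0.76 ± 0.08) and *Bank1* (-0.52 ± 0.06) fell. The raised members included *Cd79b*, the kinases *Btk* (0.26 ± 0.06) and *Syk* (0.17 ± 0.05), and *Rasgrp3* (0.19 ± 0.05). *Syk* and *Rasgrp3* were not called in some fits that left out 1 KO library, and the count raised was 2 without KO 4 h replicate 1.

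Of 27 costimulatory and antigen presentation genes, 20 were lowered (74.1%) and 7 did not pass the test, with a median of -0.32. *H2-DMb1*, a peptide exchange factor of MHC class II, was at 274, 271 and 267 CPM at 0 h and 183, 169.96 and 161 CPM at 4 h (log2 fold change -0.66 ± 0.07 SE, edgeR adjusted p = 1.53e-07). *Cd83*, a surface marker of activated B cells, was at 274, 268 and 279 CPM at 0 h and 141, 172 and 184 CPM at 4 h (log2 fold change -0.72 ± 0.08 SE, edgeR adjusted p = 1.11e-06). The class II chains *H2-Aa* (-0.26 ± 0.07), *H2-Ab1* (-0.32 ± 0.06) and *H2-Eb1* (-0.27 ± 0.06) fell by less, and their transactivator *Ciita* changed by -0.34 ± 0.06. With library totals only, 17 were lowered and 1 raised.

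Inhibitory receptors and their phosphatases had 10 of 17 lowered (58.8%) and 1 raised (2 raised without KO 0 h replicate 2, and with library totals only). The list fell further in WT, with 12 lowered, 2 raised and a median of -0.58 beside -0.30 in KO. The difference between genotypes was called for 8 of the 17 members, against 6.39% of all genes, and 6 of the 8 had the higher change in KO. *Ptpn6* (SHP-1) was at 629.9, 616 and 628 CPM at 0 h and 318, 303 and 277 CPM at 4 h (log2 fold change -1.06 ± 0.06 SE, edgeR adjusted p = 3.19e-11). *Cd22* was at 1740.04, 1841 and 1652 CPM at 0 h and 1063, 1022 and 1068 CPM at 4 h (log2 fold change -0.73 ± 0.05 SE, edgeR adjusted p = 4.90e-10). *Fcrl5* was at 28.7, 35.8 and 30.3 CPM at 0 h and 9.35, 9.44 and 11.6 CPM at 4 h (log2 fold change -1.64 ± 0.15 SE, edgeR adjusted p = 3.92e-08). Toll-like receptors and their accessory proteins had 9 of 19 lowered (47.4%), of which 5 are the receptors *Tlr1*, *Tlr3*, *Tlr4*, *Tlr7* and *Tlr9*. *Tlr7*, a sensor of single-stranded RNA, was at 105, 117 and 102 CPM at 0 h and 40.6, 40.9 and 35.7 CPM at 4 h (log2 fold change -1.47 ± 0.18 SE, edgeR adjusted p = 2.38e-06). The receptor homolog *Cd180* was at 802, 841 and 742 CPM at 0 h and 429, 431 and 379 CPM at 4 h (log2 fold change -0.94 ± 0.07 SE, edgeR adjusted p = 1.11e-09). Of 16 BAFF and TNF receptor family members and TRAF adaptors, 7 were lowered (43.8%), namely the receptors *Tnfrsf13b* (-0.57), *Tnfrsf13c*, *Cd40* (-0.39) and *Fas* (-1.24) and the adaptors *Traf1* (-0.47), *Traf3* (-0.51) and *Traf4* (-0.78). *Tnfrsf13c*, the BAFF receptor that mature B cells need to survive, was at 1756, 1681 and 1839 CPM at 0 h and 977, 921 and 964 CPM at 4 h (log2 fold change -0.88 ± 0.05 SE, edgeR adjusted p = 4.01e-11). With library totals only, 2 genes of each of the last 2 lists were raised.

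Receptors that guide migration included *S1pr3*, a sphingosine 1-phosphate receptor, at 11, 9.33 and 8.67 CPM at 0 h and 1.58, 2.87 and 2.85 CPM at 4 h (log2 fold change -1.98 ± 0.26 SE, edgeR adjusted p = 6.88e-06). The chemokine, sphingosine and lipid receptor list had 8 of 22 lowered and 3 raised, or 6 and 5 with library totals only. The lowered were 5 without KO 0 h replicate 2, KO 4 h replicate 2 or KO 4 h replicate 3. A list of RGS proteins, G protein α subunits, receptor kinases and arrestins had 6 of 16 lowered. These were the RGS genes *Rgs14* (-0.92 ± 0.10) and *Rgs19* (-0.27 ± 0.06), the receptor kinase *Grk6* (-0.60 ± 0.06), the arrestin *Arrb2* (-0.27 ± 0.08, a call lost without KO 0 h replicate 1 or 2 or KO 4 h replicate 2 or 3), and *Gnai2* (-0.36 ± 0.06) and *Gna13* (-0.28 ± 0.06), whose products pass on receptor signals.

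Transcription factors of B cell identity were divided, with 8 of 27 raised and 10 lowered, or 10 raised and 6 lowered with library totals only. *Spib* was at 761, 750.2 and 819 CPM at 0 h and 392.1, 403 and 393 CPM at 4 h (log2 fold change -0.97 ± 0.05 SE, edgeR adjusted p = 1.31e-11). *Bcl11a* (-0.65 ± 0.06) and *Ikzf1* (-0.43 ± 0.05) fell. *Id3*, an inhibitor of E proteins, was at 67.9, 66.5 and 58.6 CPM at 0 h and 121, 132 and 127 CPM at 4 h (log2 fold change 0.98 ± 0.08 SE, edgeR adjusted p = 7.00e-09). The E protein gene *Tcf3* rose too (0.52 ± 0.05), as did *Lef1* (1.23 ± 0.26) and *Myb* (0.77 ± 0.15). In the Notch2 pathway, which directs B cells to the marginal zone, the targets *Hes1*, *Cr2* and *Dtx1* fell. *Dtx1* was at 108, 114 and 120.4 CPM at 0 h and 68.6, 62.8 and 62.5 CPM at 4 h (log2 fold change -0.82 ± 0.07 SE, edgeR adjusted p = 1.07e-08). *Notch2* itself rose, at 891, 889 and 934 CPM at 0 h and 1211, 1156 and 1137 CPM at 4 h (log2 fold change 0.37 ± 0.05 SE, edgeR adjusted p = 1.02e-05). *Hes5* (0.16 ± 0.26) and *Nrarp* (-0.54 ± 0.34), also targets, did not pass the test, and 3 of the 16 genes were raised and 3 lowered. The raised were 5 with library totals only and 1 without KO 0 h replicate 1 or KO 4 h replicate 3. *Cr2*, *Dtx1* and *S1pr3* are also marginal zone B cell markers, of which 5 of 8 were lowered and 3 raised, and their summed level was 1305 to 1486 CPM at 0 h and 678 to 738 CPM at 4 h. In WT that sum was 1463 to 1517 CPM at 0 h and 508 to 550 CPM at 4 h. Marginal zone B cells carry much CD21/35 and little CD23, whereas the gate of the sort was CD21/35- CD23+. The part of marginal zone B cells in these falls was not tested.

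Genes of the BCL2 family, which set the threshold for apoptosis, had 6 of 14 raised (42.9%) and 4 lowered (28.6%). Of the death-promoting members that carry only the BH3 domain, 3 rose. *Bcl2l11* (BIM) was at 60.8, 59.6 and 71.8 CPM at 0 h and 109, 104 and 102 CPM at 4 h (log2 fold change 0.71 ± 0.08 SE, edgeR adjusted p = 1.49e-06). *Bbc3* (PUMA) was at 1.01, 1.33 and 1.24 CPM at 0 h and 3.95, 3.23 and 3.94 CPM at 4 h (log2 fold change 1.63 ± 0.37 SE, edgeR adjusted p = 0.00249). *Bmf* was at 21.1, 20.1 and 17.3 CPM at 0 h and 34.4, 26.9 and 28.3 CPM at 4 h (log2 fold change 0.61 ± 0.13 SE, edgeR adjusted p = 0.00122). *Pmaip1* (NOXA), of the same class, was lowered (-0.58 ± 0.19), a call lost with library totals only and without KO 0 h replicates 2 or 3 or KO 4 h replicates 2 or 3. The effector *Bax* rose (0.50 ± 0.10) and the effector *Bak1* fell (-0.67 ± 0.12). Survival genes *Bcl2* (-0.40 ± 0.09) and *Mcl1* (-0.30 ± 0.06) fell, and *Bcl2a1d* (1.29 ± 0.30) and *Bcl2a1b* (0.59 ± 0.17), which are near-identical copies whose reads may be shared, rose, the latter without a call when KO 0 h replicate 2 or KO 4 h replicate 3 was left out.

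Of 39 genes of DNA replication and mitosis, 9 were lowered (23.1%) and 30 did not pass the test, with a median of -0.40. *Mki67*, the proliferation antigen Ki-67, was at 299.8, 245 and 352 CPM in KO 0 h replicates 1 to 3 and 95.5, 165 and 172 CPM in KO 4 h replicates 1 to 3. The groups did not overlap, though the spread within each was wide (log2 fold change -1.05 ± 0.18 SE, edgeR adjusted p = 0.000157). *E2f2* (-0.72 ± 0.08) and *Birc5* (-0.86 ± 0.23) fell, the latter without a call when KO 0 h replicate 1 or KO 4 h replicate 1 was left out. The replication helicase genes *Mcm2* to *Mcm7* did not pass the test, at -0.11 to 0.20. The count lowered ranged from 2 to 12 as single libraries were left out, and was 2 without KO 4 h replicate 1, 4 without KO 0 h replicate 1 or 3 and 6 without KO 4 h replicate 2. Germinal centre B cell markers, of which 4 of 8 were lowered (2 without KO 0 h replicate 3 or KO 4 h replicate 1, 7 without KO 4 h replicate 3), had a summed level of 279 to 333 CPM at 0 h and 231 to 250.1 CPM at 4 h, and their part in this was not tested.

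Few housekeeping genes were called. Of 75 cytosolic ribosomal protein genes, 5 were lowered (6.67%), and of 44 genes of mitochondrial oxidative phosphorylation, 3 were lowered (6.82%). When single libraries were left out these counts were 1 to 6 and 0 to 6. The ribosomal count was 1 or 2 without any of KO 0 h replicates 1 to 3 or KO 4 h replicates 1 or 2. The other was 1 without KO 0 h replicate 1 or 3, 0 without KO 4 h replicate 1 and 6 without KO 4 h replicate 3. Their medians of -0.043 and -0.0079 became 0.047 and 0.082 with library totals only, with 2 raised and 2 lowered in the first and 3 raised and 2 lowered in the second. MYC targets and genes of ribosome biogenesis had 7 of 30 raised (23.3%) and 1 lowered, or 12 raised with library totals only, and *Myc* itself was at 73.2, 75.7 and 73.1 CPM at 0 h and 98.7, 105 and 91.7 CPM at 4 h (log2 fold change 0.41 ± 0.09 SE, edgeR adjusted p = 0.00127).

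Lists not yet described moved in both directions. KLF and FOXO quiescence factors had 4 of 17 raised and 8 lowered (median log2 fold change -0.20), or 5 lowered with library totals only. *Klf4*, a factor that restrains B cell proliferation, was at 7.58, 8.3 and 9.36 CPM at 0 h and 2.37, 1.55 and 2.72 CPM at 4 h (log2 fold change -1.93 ± 0.25 SE, edgeR adjusted p = 5.07e-06). Integrins and other adhesion molecules had 3 of 23 raised (1 without KO 4 h replicate 2) and 7 lowered (median -0.090), with *Icam1* (-0.90 ± 0.13) and the integrin chains *Itgb7* (-0.64 ± 0.07) and *Itgal* (-0.63 ± 0.06) lowered. SLAM family receptors had 2 of 8 raised (1 without KO 0 h replicate 1 or KO 4 h replicate 1) and 4 lowered (median -0.28). *Slamf1* changed by -1.39 ± 0.10 and *Slamf7* by 0.45 ± 0.05.

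Glycolysis and hypoxia genes had 5 of 28 raised and 7 lowered, with a median of -0.025 that turned to 0.065 with library totals only and 0.032 without KO 0 h replicate 3. *Vegfa*, a hypoxia-induced growth factor, was at 0.253, 0.296 and 0.826 CPM at 0 h and 3.56, 3.82 and 4.08 CPM at 4 h (log2 fold change 3.02 ± 0.45 SE, edgeR adjusted p = 2.97e-05), and the glucose transporter genes *Slc2a1* (-0.43 ± 0.08) and *Slc2a3* (-0.49 ± 0.10) fell. The TXNIP and nutrient sensing list had 5 of 18 raised (3 without KO 0 h replicate 2) and 4 lowered (median 0.071), and the circadian clock list had 3 of 17 raised and 2 lowered (median 0.21). The clock genes raised were 6 with library totals only and 1 without KO 4 h replicate 1 or 2. Targets of p53 had a median of -0.14 (0.011 without KO 4 h replicate 1), with 6 of 21 raised and 2 lowered (1 without KO 0 h replicate 2 or KO 4 h replicate 3, and with library totals only). TGF-β and SMAD targets had a median of 0.22, with 4 of 12 raised and 2 lowered (1 without KO 0 h replicate 3 or KO 4 h replicate 1 or 2). Class IIa HDACs and MEF2 factors had a median of -0.28, with 1 of 8 raised, *Hdac5* (0.35 ± 0.09), and 4 lowered (2 without KO 0 h replicate 1 or 3 or KO 4 h replicate 2, and with library totals only).

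The cAMP list bears on the pathway that GPR174 feeds in WT cells. Of 26 genes tested in KO, 9 were raised (34.6%) and 3 lowered (11.5%), with a median of -0.026 in KO and 0.65 in WT. The median in KO became 0.06 with library totals only. *Pde3b* rose in both genotypes, and its change in WT minus that in KO was 1.41 ± 0.13 (SE, edgeR adjusted p = 2.08e-07). *Pde4b*, another cAMP phosphodiesterase, changed by 0.61 ± 0.06 in KO, and *Pde4d* by 0.27 ± 0.16 without a call. *Sik1*, a salt-inducible kinase and CREB target, was at 54.3, 55 and 59.4 CPM at 0 h and 19.1, 18.9 and 21.3 CPM at 4 h in KO. In WT it was at 62.7, 57.8 and 49.6 CPM at 0 h and 99.1, 89.9 and 93.1 CPM at 4 h. It fell in KO (log2 fold change -1.51 ± 0.10 SE, edgeR adjusted p = 3.70e-10) and rose in WT, a difference of 2.24 ± 0.13 (SE, edgeR adjusted p = 2.76e-10). The difference between genotypes was called for 13 of the 26 members, against 6.39% of all genes.

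Genotypes were compared by the change in WT minus the change in KO. Of the 2697 KO DEGs, 436 (16.2%) had a culture change that differed between genotypes, and the other 2261 did not pass that test. The change was larger in WT in 256 of the 436 and larger in KO in 180, of which 101 rose and 79 fell in KO. Over all tested genes 739 (6.39%) had such a difference. The split leaves out those not called in KO, among them any that changed only in WT, so it does not compare the genotypes as a whole. Among DEGs whose KO change was larger and above the WT change, the rule named *F2rl1*, *Gm15880*, *Fahd1*, *Sdc1* and *Pcgf1*. *F2rl1*, the protease-activated receptor 2 (chromosome 13, 95511732 to 95525227), was at 1.39, 2.22 and 1.79 CPM at 0 h and 4.35, 4.78 and 3.94 CPM at 4 h in KO. In WT it was at 4.28, 3.14 and 3.66 CPM at 0 h and 1.94, 2.03 and 1.69 CPM at 4 h. It rose in KO and fell in WT, a difference of -2.26 ± 0.43 (SE, edgeR adjusted p = 0.00162). *Gm15880* is an antisense gene (chromosome 7, 80636017 to 80644384), at 14.5, 16.3 and 16.1 CPM at 0 h and 27.1, 27.5 and 22.2 CPM at 4 h in KO. In WT it was at 19.3, 18.7 and 13.8 CPM at 0 h and 10.8, 13.8 and 8.86 CPM at 4 h (log2 difference -1.36 ± 0.23 SE, edgeR adjusted p = 0.000528). Its reads could not be told from those of the opposite strand. *Sdc1* was at 7.77, 7.85 and 7.59 CPM at 0 h and 29, 21.4 and 22.4 CPM at 4 h in WT, so that WT cells began higher, and its difference (log2 difference -1.2 ± 0.29 SE, edgeR adjusted p = 0.0115) was not called without KO 0 h replicate 2. *Fahd1* (-1.26) and *Pcgf1* (-1.16) were lowly expressed, and their KO changes (0.71 and 0.69) were not called without any single KO library, when they were 0.57 to 0.79 and 0.51 to 0.78.

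Below the WT change, the rule named *Cldn13*, *Itga2*, *Tigd5*, *Sik1* and *4930550C14Rik*. *Tigd5* was at 5.18, 3.85 and 6.88 CPM at 0 h and 1.05, 1.67 and 2.45 CPM at 4 h in KO. In WT it was at 1.8, 1.79 and 1.88 CPM at 0 h and 1.94, 3.44 and 3.38 CPM at 4 h (log2 difference 2.31 ± 0.50 SE, edgeR adjusted p = 0.00524). *Cldn13* (3.07), *Itga2* (2.38) and *4930550C14Rik* (2.18) had under 4 CPM in every library, and each difference was lost in 5 to 10 of the 12 fits that left out 1 library. The KO libraries of *Cldn13* overlapped between the times, and the KO call was lost in 4 such fits for *Cldn13* (without KO 0 h replicate 2 or any KO 4 h library) and in 4 for *Itga2* (without KO 0 h replicates 1 or 3 or KO 4 h replicates 1 or 2). *Socs3*, more abundant and given above for KO, was at 16.6, 19.95 and 21.3 CPM at 0 h and 8.39, 10.8 and 13.2 CPM at 4 h in WT, a difference of 1.67 ± 0.27 (SE, edgeR adjusted p = 0.000288). *Scd1* fell by 1.17 in KO and by 0.29 in WT (log2 difference 0.88 ± 0.08 SE, edgeR adjusted p = 1.14e-07). *Id3* (log2 difference -0.72 ± 0.11 SE, edgeR adjusted p = 0.000174) and *Bach2* (log2 difference -0.52 ± 0.08 SE, edgeR adjusted p = 0.000142) rose in KO, and *Bach2* was not called in WT (-0.04).

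**Figure D4:**
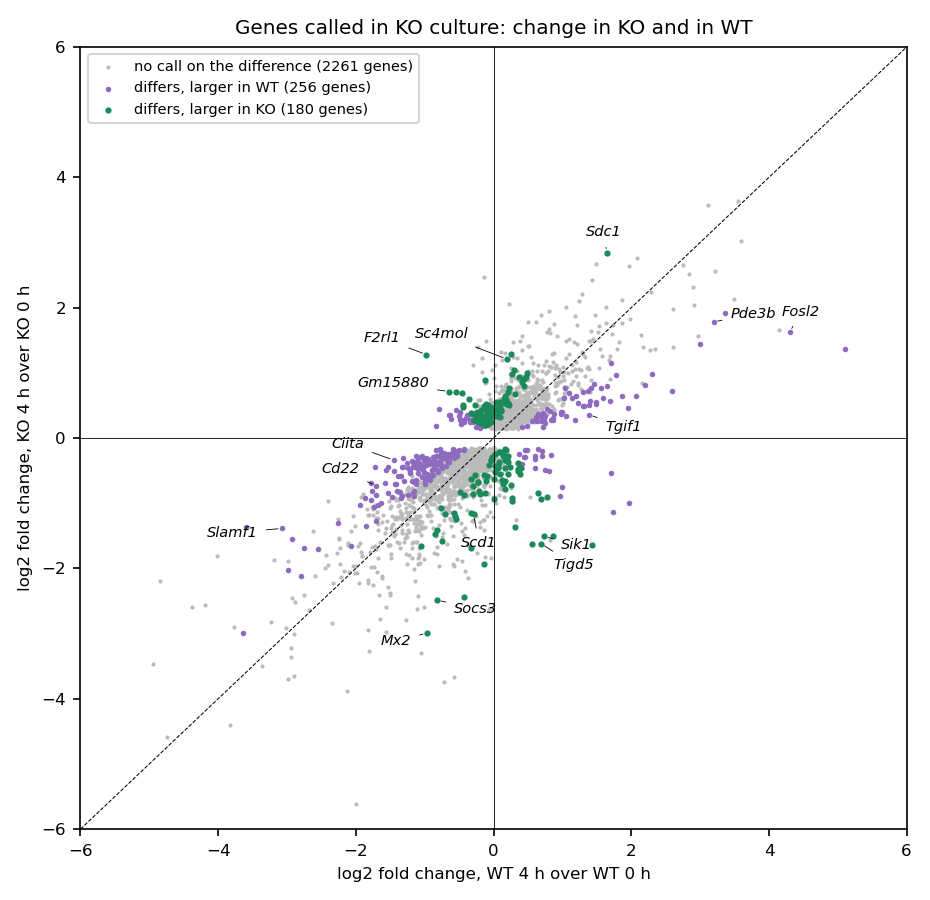
Culture change of the 2697 KO DEGs in both genotypes: the x axis is the log2 fold change in WT, the y axis that in KO, and each point a gene. Green genes (180) have a change that differs between genotypes and is larger in KO, purple genes (256) one that differs and is larger in WT, and grey genes (2261) passed no test of the difference; the dashed line marks equal change.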

How the data were processed

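RNA of 12 libraries was measured, 3 for each genotype and time. The authors aligned single-end reads to mm10 with STAR, counted them per gene with HTSeq and deposited raw counts as separate 0 h and 4 h tables; versions, annotation and strand setting are not given in the sources used here. The tables were joined by gene symbol. Every row in them sums to at least 10 counts, so a gene found in only 1 table was not tested. All columns were mapped (0 unmapped).

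Counts of 12 libraries in 4 groups were fitted with edgeR 4.0.16 (R 4.3.3; filterByExpr, TMM, quasi-likelihood test, Benjamini-Hochberg adjustment over 11572 genes, threshold 0.05), for KO 4 h minus KO 0 h and for the WT change minus the KO change. The study describes 3 mice for each genotype. The labels give only replicate numbers. Replicate KO libraries differed by more than sampling noise. In simulated counts for the KO comparison (11425 genes), 84.8% of genes changed 2-fold and 71% of genes changed 1.5-fold were called, with 8 false calls.

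The members and the gene lists were chosen with earlier results of these data known. Named genes were, by rule, the 15 with the largest log2 fold change in each direction among called genes with non-overlapping libraries and at least 5 CPM in the higher group, the 5 with the largest CPM difference in each direction, the 5 in each direction with the largest genotype difference among those with the larger change in KO, and up to 4 called genes per list. Other list members are given to show the range. Of 904 list genes, 810 were tested and 15 were matched by an older symbol. Alternatives were library totals, DESeq2 size factors, DESeq2 1.42.0, other filters, only KO libraries, a replicate block and leaving out each library. Coordinates are from GENCODE and promoters from RefSeq (GRCm38.p6), in which 8278 tested genes matched. The values of some list members are not reported here.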

Additional observations from a re-analysis of the deposited data

Results flagged for a closer look

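The culture change differed between genotypes at an edgeR adjusted p under 0.05 in 739 genes, and 45 of these are genes chosen by rule. Not all of them are reported here. Values are the WT change minus the KO change on the log2 scale.

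In 26 of the 45 the KO change was the higher. Cell surface and signaling genes of this kind included *F2rl1* (-2.26), *Slamf1* (-1.68), *Sdc1* (-1.20), *Cr2* (-1.07), *Cd22* (-0.98), *Cd180* (-0.83), *Ptpn6* (-0.68), *Lta* (-0.67), *Cd84* (-0.67), *Slamf7* (-0.53), *Gpr174* (-0.47), *H2-DMb1* (-0.34), *Ptprc* (-0.29) and *Tnfrsf13c* (-0.27). The others were *Gm15880* (-1.36), *Hdac9* (-1.28), *Fahd1* (-1.26), *Pcgf1* (-1.16), *Sc4mol* (-1.01), *Hdac7* (-0.78), *Id3* (-0.72), *Ahnak* (-0.65), *Bach2* (-0.52) and *Macf1* (-0.44).

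In 19 the WT change was the higher. Transcription, cAMP and cytokine feedback genes of this kind were *Fosl2* (2.68), *Sik1* (2.24), *Socs3* (1.67), *Pde3b* (1.41), *Tgif1* (1.02) and *Dtx1* (0.33). The others were *Cldn13* (3.07), *Itga2* (2.38), *Tigd5* (2.31), *4930550C14Rik* (2.18), *Mx2* (2.02), *6330403A02Rik* (1.45), *Cd83* (0.98), *Abca1* (0.97), *Scd1* (0.88), *Odc1* (0.64), *Rps6* (0.63), *Bcl2l11* (0.59) and *Scd2* (0.59). The difference was not called when 1 library or more was left out in turn for *Sdc1*, *6330403A02Rik*, *Mx2*, *Fahd1*, *Pcgf1*, *Cldn13*, *Itga2*, *4930550C14Rik*, *Scd2*, *Odc1*, *Rps6*, *Tnfrsf13c*, *H2-DMb1*, *Fosl2* and *Dtx1*.

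Genes found in only 1 of the tables could not be tested and are given as the sum of counts over the 3 KO libraries where that reached 30. In the 0 h table only, the complement genes *C1qb*, *C1qc* and *C1qa*, which macrophages express, had 100, 97 and 44 counts. There were 57 counts of *Hpgd*, 49 of *Frmd4b*, 43 of *Igf1*, 39 of *Cxcl9*, 37 of *Fcna*, 33 of *Ccr3* and 32 of *Cadm1*. In the 4 h table only, the chemokine genes *Ccl3* and *Ccl4* had 112 and 80 counts, the immediate early gene *Nr4a2* had 48 and *Chac1*, a glutathione-degrading enzyme of the integrated stress response, had 38.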

How the results depend on the processing

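The count of 2697 DEGs was 2503 with DESeq2, 2694 with DESeq2 size factors, 2647 with no filter on low counts, 2592 with at least 5 CPM in 3 libraries, 3269 with library totals and 3384 with only KO libraries in the fit. The 1193 raised became 2168 with library totals, and 1101 genes were then lowered. The median of all genes was 0.092 on the log2 scale there, against 0.0016 with TMM. The 453 genes changed over 2-fold became 297, and the 134 raised among them 71, with at least 5 CPM in 3 libraries, a setting that tests fewer lowly expressed genes. When each library was left out in turn, the DEGs numbered 1919 to 2891, the raised 761 to 1308, the lowered 1158 to 1583, the genes over 2-fold 370 to 474 (raised 101 to 145, lowered 269 to 329), and the genes with a genotype difference 497 to 743. The 761 was without KO 0 h replicate 1, and the cause was not tested. No change of a gene chosen by rule reversed, and 139 of 168 kept their call under every alternative. The other 29 lost it when a library was left out. Of 45 genotype differences among them, 30 kept their call and 15 did not. Libraries with the same number had correlations of deviations of -0.040, 0.15 and 0.15 in KO and 0.13, 0.072 and 0.12 in WT. Those with different numbers in a genotype had -0.18 to 0.051. KO 0 h replicate 1 correlated best with KO 4 h replicate 2, and every other 0 h library with the 4 h library of its own number. Whether equal numbers mark the same mouse was not settled by these values. The replicate block gave 2859 DEGs and 842 genotype differences in the fit of 4 groups, and 3397 DEGs with only KO libraries. At this depth and with 3 libraries a group, 71% of simulated 1.5-fold changes were called, so a gene that missed the threshold may still have changed.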
